A study of Homo sapiens with 8 samples.

Results

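Replication-dependent histone genes are transcribed and their RNAs are given their 3′ ends by a dedicated set of factors, of which 10 genes were followed here by name: NPAT, CASP8AP2, SLBP, LSM10, LSM11, ZNF473, CPSF3, SYMPK, ERI1 and MIGA2. The genes were taken from a list of names, which was chosen with earlier results of these data known. They were matched by Ensembl identifier to 10 of the 57500 genes of the counts table. All 10 passed the filter on low counts and were among the 19171 genes tested. RNA was sequenced from HEK293T cells, a human embryonic kidney line with the large T antigen of SV40. Of the 8 libraries, 4 came from cells given 100 µM DZNep and 4 from cells given vehicle (Control), each for 48 h, and each group was numbered as replicates 1 to 4. DZNep, or 3-deazaneplanocin A, blocks AHCY, the enzyme that clears S-adenosylhomocysteine, and thereby lowers the methylation potential of the cell. All libraries come from 1 cell line, at 1 dose and 1 time, grown in medium with 10% fetal bovine serum that the labels name as DMEM and the study's methods as RPMI.

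Most messenger RNAs end in a poly(A) tail, whereas the RNAs of replication-dependent histone genes end in a conserved stem-loop and are made mainly in S phase. NPAT, a substrate of cyclin E and CDK2, and CASP8AP2 (also called FLASH) gather at these genes in the histone locus body. SLBP binds the stem-loop, the U7 small nuclear ribonucleoprotein with LSM10 and LSM11 pairs with a downstream element, and CPSF3, the endonuclease, cuts between them with SYMPK as a scaffold. ZNF473 (also called ZFP100) bridges SLBP and the U7 particle, and ERI1 is an exonuclease that trims the end and takes part in decay of the RNA. MIGA2 encodes mitoguardin 2 of the outer mitochondrial membrane. It stands on the list without a known role in histone RNA, and its values are given apart from the others.

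The stem-loop is shown because it is the RNA site around which these proteins assemble. Among the 65 replication-dependent histone genes of the counts table, 64 held the 16-base stem-loop consensus in the last 200 bases of a GENCODE transcript, against 77 of the 56410 counted genes with such a transcript, or 0.137%. In 56 of the 64 the transcript also ran for 5 bases or more past both ends of it, and the most frequent form of the 16 bases was that of 31 of these 56 genes. It is given here for H3C10 on chromosome 6 from 27810051 to 27811300 and for H2AC6 on chromosome 6 from 26124145 to 26139116 (GRCh38, plus strand), the positions of the genes, with the stem-loop in capitals and 5 flanking bases on each side.
H3C10: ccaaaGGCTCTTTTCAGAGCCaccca
H2AC6: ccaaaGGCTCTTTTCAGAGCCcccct
U7 RNA is shown because LSM10 and LSM11 assemble on it. GENCODE places RNU7-1 on chromosome 12 from 6943816 to 6943878 (GRCh38, plus strand), with 63 bases, in which the capitals mark the Sm site, starting at base 21.
RNU7-1: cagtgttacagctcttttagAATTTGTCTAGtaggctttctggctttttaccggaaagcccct
RNU7-1 was listed with 0 counts in all 8 libraries. In the shallowest library, 3 counts would be 1.2e-05% of the total, a limit for counting error only. The RNA has 63 bases, the reads were of 150 bp and the library type is not given in the sources used here. The 0 therefore does not show that U7 RNA was absent from the cells.

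The libraries held between 25043058 and 44902779 counts, and Control replicate 1 was the shallowest. Values for single genes are normalized counts, which are counts divided by the size factor of the library that the authors used. Fold changes and log2 differences between the groups are those fitted by edgeR with its own scaling, unless another fit is named. They therefore differ slightly from the ratio of the mean normalized counts. Mitochondrial transcripts took 7.76% and 13.7% of the counts in Control replicates 1 and 4 and 3.02% and 3.16% in Control replicates 2 and 3, and 7.04%, 4.25%, 4.44% and 10.1% in DZNep replicates 1 to 4. Of 5 markers of the line, PAX2, LHX1, NEFL, NEFM and VIM, each had counts in every library, and their summed level ranged from 26998 to 49108 normalized counts in the Control and from 31315 to 39503 in the DZNep libraries. LHX1 and PAX2 fell by 1.43 and 0.54 on the log2 scale. Of 7 markers of other cell types (PTPRC, CD3E, ALB, INS, HBB, COL1A1 and MYH7), between 2 and 3 were at 0 in a library, and HBB was at 0 in all of them. Their sum, from 2289 to 4469 in the Control and from 2464 to 4757 in the DZNep libraries, was nearly all COL1A1. The T cell marker CD3E was at 0 in the Control and at 8.16 to 40.5 normalized counts in the DZNep libraries, and MYH7 of heart muscle was at 0.893 to 1.79 and at 9.98 to 25.05. Their part in the results was not tested. In bulk RNA, fewer cells of a type and less RNA per cell cannot be told apart.

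With DZNep, transcripts of CASP8AP2, CPSF3 and LSM10 fell, that of MIGA2 rose, and the other 6 did not pass the test. CASP8AP2 was 2.92-fold lower, CPSF3 1.95-fold lower and LSM10 1.77-fold lower. They belong to transcription at the histone locus body, cleavage and the U7 particle, where NPAT, SYMPK, LSM11 and ZNF473 did not pass. The groups of LSM10 overlapped, and its call was lost when any 1 of 5 of the 8 libraries was left out. At an adjusted p-value under 0.05 from edgeR's quasi-likelihood test, 3 of the 10 genes were lower, beside 21.8% of all genes tested, and 1 was higher, beside 19.1%. With an absolute log2 fold change over 1 as a second threshold, 1 was lower (CASP8AP2), beside 13.5% of all genes. By the same rule 0 were higher, beside 10.6%, with 2 higher at an unadjusted p under 0.05. DESeq2 by both thresholds also gave 1 lower, beside 13.6%, and 0 higher, beside 11.2%, and limma gave 1 lower, beside 12.3%, and 0 higher, beside 11%. The shares of the 10 genes called were thus near those of all genes. The median log2 fold change of the 10 was 0.02, beside -0.03 over all genes tested. All 4 DZNep libraries lay below all 4 Control libraries for 2 of the 10, beside 19.4% of all genes, and above them for 3, beside 19.5%.

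**Figure D1:**
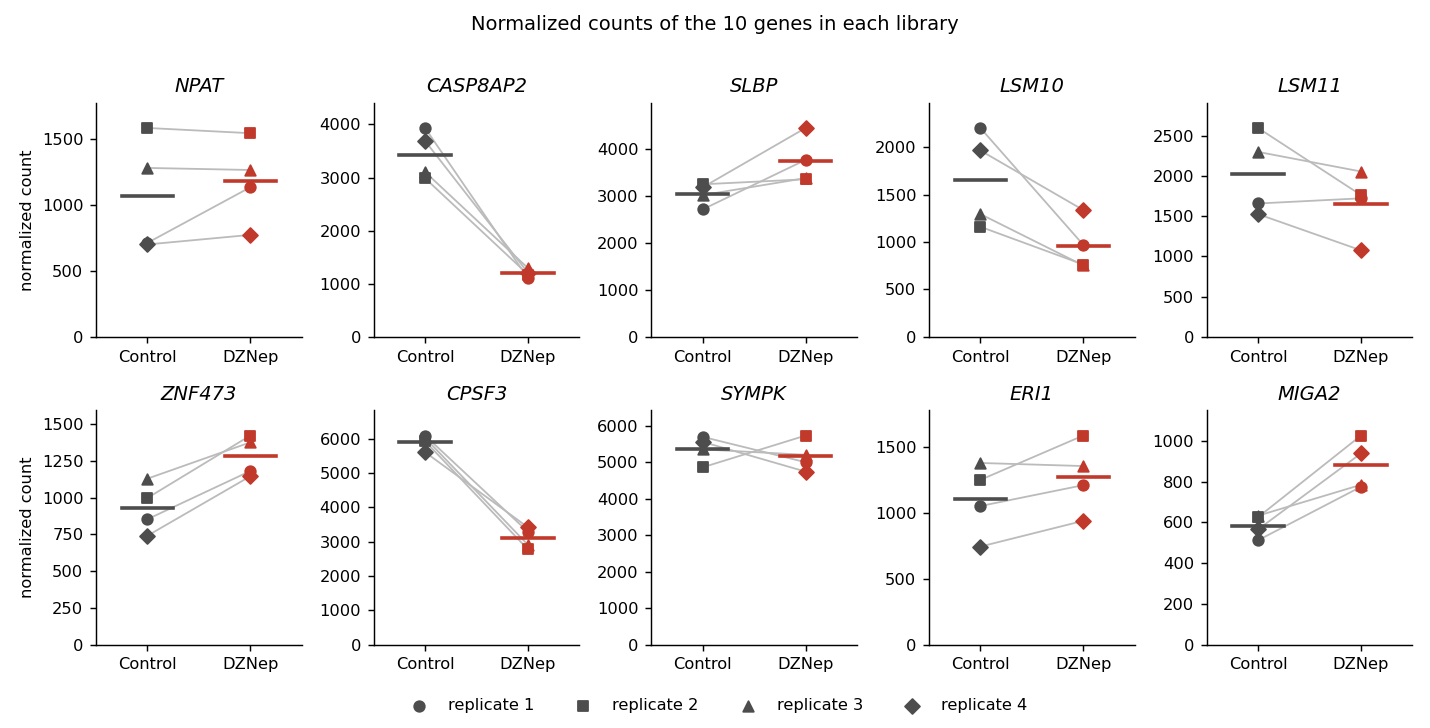
Normalized count (vertical axes, from 0) of each of the 10 genes in the 4 Control and 4 DZNep libraries; symbols mark replicates 1 to 4, grey lines join libraries of the same number and bars give the mean of 4. CASP8AP2 and CPSF3 show the DZNep libraries below all Control libraries, and NPAT, LSM10, LSM11 and ERI1 show a wide spread between replicates in both groups.

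CASP8AP2 (ENSG00000118412), the FLASH protein of the histone locus body, lies on chromosome 6 of GRCh38 from 89829894 to 89874436. Its normalized counts were 3933, 2987, 3105 and 3688 in Control replicates 1 to 4 and 1103, 1174, 1295 and 1206 in DZNep replicates 1 to 4. The groups were far apart, since the highest DZNep library was below the lowest Control library by more than the spread within either group. The mean fell from 3428 ± 455 to 1194 ± 79.5 (SD, n = 4 each). On the log2 scale the difference was -1.55 (standard error 0.14, 95% interval -1.87 to -1.23, adjusted p = 4.09e-05 by edgeR). Between libraries that share a replicate number, the log2 ratio ranged from -1.83 in replicate 1 to -1.26 in replicate 3.

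NPAT (ENSG00000149308), its partner in the histone locus body and the coactivator of histone gene transcription, lies on chromosome 11 from 108157215 to 108222638. Its normalized counts were 712, 1583, 1280 and 700.5 in Control replicates 1 to 4 and 1134, 1543, 1264 and 773 in the DZNep libraries. The groups overlapped almost fully, and in the Control replicates 1 and 4, the libraries with the larger mitochondrial share, were low while replicates 2 and 3 were high. The part of that share in the values was not tested. The log2 fold change was 0.11 (95% interval -0.55 to 0.78, adjusted p = 0.787 by edgeR), and DZNep was higher in 2 pairs and lower in 2. The sign turned, to -0.048, -0.050 and -0.036, without Control replicate 1, Control replicate 4 or DZNep replicate 2. NPAT and CASP8AP2, which work at the same place, thus gave intervals that do not overlap.

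ATM, a DNA damage kinase, is read in the opposite direction from a start 429 bases away from that of NPAT. Its normalized counts were 1306, 1652, 1690 and 1457 in Control replicates 1 to 4 and 684, 974, 891 and 697.5 in the DZNep libraries, with no overlap. It fell by 0.94 on the log2 scale (standard error 0.17, adjusted p = 0.00139 by edgeR). The ratio of ATM to NPAT counts within a library, on which scaling between libraries has no bearing, was 1.57 ± 0.47 in the Control and 0.71 ± 0.14 (SD, n = 4 each) with DZNep, and was lower in every DZNep library, a description without a test. The promoter windows of both genes in RefSeq (GRCh38.p14, 250 bases before to 50 after the start) share 72 bases. They are shown because the starts lie so close together while the transcripts differed. Of 2 ATM windows in the table, the one nearer to NPAT is given, and capitals mark CCAAT on either strand.
NPAT, chr11:108222589-108222888, minus strand: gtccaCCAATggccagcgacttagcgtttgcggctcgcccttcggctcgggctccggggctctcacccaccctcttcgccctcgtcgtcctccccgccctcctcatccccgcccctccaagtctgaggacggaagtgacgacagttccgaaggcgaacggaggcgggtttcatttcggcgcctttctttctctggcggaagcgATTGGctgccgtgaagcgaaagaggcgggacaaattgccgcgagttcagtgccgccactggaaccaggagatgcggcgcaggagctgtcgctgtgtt
ATM, chr11:108222817-108223116, plus strand: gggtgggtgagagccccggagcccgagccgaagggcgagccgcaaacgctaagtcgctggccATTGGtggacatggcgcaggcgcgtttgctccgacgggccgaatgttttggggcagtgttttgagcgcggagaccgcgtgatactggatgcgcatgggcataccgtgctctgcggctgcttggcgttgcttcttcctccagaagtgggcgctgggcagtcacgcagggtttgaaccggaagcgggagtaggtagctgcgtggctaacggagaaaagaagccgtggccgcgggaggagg

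SLBP (ENSG00000163950), the stem-loop binding protein, lies on chromosome 4 from 1692731 to 1712344. SLBP had 2712, 3245, 3016 and 3181 normalized counts in Control replicates 1 to 4 and 3766, 3353, 3377 and 4444 in the DZNep libraries. Every DZNep library lay above every Control library, by little in replicates 2 and 3. The mean was 3039 ± 238 in the Control and 3735 ± 509 (SD, n = 4 each) with DZNep. The log2 fold change of 0.27 did not pass the test (95% interval -0.05 to 0.59, adjusted p = 0.160 by edgeR). The pairs gave log2 ratios of 0.47, 0.05, 0.16 and 0.48 in replicates 1 to 4, which are largest in the replicates with the larger mitochondrial share, whose part was not tested.

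LSM10 (ENSG00000181817) and LSM11 (ENSG00000155858) are the Sm-like proteins that replace SNRPD1 and SNRPD2 in the ring of the U7 particle. LSM10 lies on chromosome 1 from 36391238 to 36397908 and LSM11 on chromosome 5 from 157743712 to 157760709. LSM10 had 2201, 1161, 1294 and 1964 normalized counts in Control replicates 1 to 4 and 969.5, 763, 753 and 1336 in the DZNep libraries. DZNep replicate 4 lay above Control replicates 2 and 3, so that the groups overlapped, while within each pair the DZNep library was lower. The mean fell from 1655 ± 506 to 955 ± 273 (SD, n = 4 each), and the log2 fold change was -0.82 (standard error 0.26, adjusted p = 0.0266 by edgeR). The call was lost without any of 5 of the 8 libraries. Without Control replicate 1 the adjusted p-value was 0.0765 and without Control replicate 4 it was 0.0530. Without DZNep replicate 1, 2 or 3 it was 0.0676, 0.0779 or 0.0813. Blocked on the replicate number, it was 7.2e-05.

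LSM11 had 1659, 2598, 2300 and 1527 normalized counts in Control replicates 1 to 4 and 1723, 1764, 2056 and 1077 in the DZNep libraries. The groups overlapped, and replicates 1 and 4 were the low ones in the Control, the reverse of LSM10. The log2 fold change was -0.31 (95% interval -0.84 to 0.21, adjusted p = 0.315 by edgeR), and blocking on the replicate number gave -0.32 with an adjusted p of 0.0434. The pairs gave log2 ratios of 0.05, -0.56, -0.16 and -0.50. The ratio of LSM10 to LSM11 counts was 1.33, 0.45, 0.56 and 1.29 in Control replicates 1 to 4 and 0.56, 0.43, 0.37 and 1.24 in the DZNep libraries. It thus differed more between replicates of one group than between the group means of 0.91 and 0.65.

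ZNF473 (ENSG00000142528), the zinc finger protein of the U7 particle, lies on chromosome 19 from 50025714 to 50053414. ZNF473 had 852.5, 997, 1129 and 740 normalized counts in Control replicates 1 to 4 and 1181, 1422, 1376 and 1145 in the DZNep libraries. The groups did not overlap, although DZNep replicate 4 was close to Control replicate 3. The mean was 929.7 ± 169 in the Control and 1281 ± 138 (SD, n = 4 each) with DZNep, and the log2 fold change of 0.44 (standard error 0.16, adjusted p = 0.0570 by edgeR) missed the threshold. DZNep was higher in all 4 pairs. The adjusted p was 0.00436 by edgeR blocked on the replicate number, 0.0251 by DESeq2 and 0.0369 by edgeR without Control replicate 3. ZNF473 passed in 7 of 16 alternatives and missed in 9, and the highest adjusted p was 0.143, by edgeR without Control replicate 1. By DESeq2 at the p-value alone, 2 of the 10 genes (ZNF473 and MIGA2) were thus higher, beside 21.9% of all genes, and 3 (CASP8AP2, LSM10 and CPSF3) were lower, beside 23.3%. Exons of ZNF473 share 3.23% of their bases with exons of VRK3 on the opposite strand. The strandedness of the counting is not given in the sources used here, so those reads are uncertain. VRK3 itself stood at -0.20 on the log2 scale (adjusted p = 0.372).

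CPSF3 (ENSG00000119203), the endonuclease that cuts both histone and polyadenylated precursors, lies on chromosome 2 from 9423651 to 9473101. CPSF3 had 6095, 5933, 6027 and 5612 normalized counts in Control replicates 1 to 4 and 3288, 2771, 2905 and 3417 in the DZNep libraries. The Control libraries were close together, and all DZNep libraries were far below them. The mean fell from 5917 ± 214 to 3095 ± 306 (SD, n = 4 each). The log2 fold change of -0.96 (standard error 0.13, 95% interval -1.25 to -0.67, adjusted p = 0.000325 by edgeR) passed on the p-value and fell just short on the fold change. Without DZNep replicate 4, CPSF3 and LSM10 reached -1.01 and -1.02 and 3 of the 10 genes were called lower by both thresholds in place of 1, beside 14.2% of all genes tested in that fit.

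SYMPK (ENSG00000125755), the scaffold of the cleavage complex, lies on chromosome 19 from 45815410 to 45863194. SYMPK had 5693, 4859, 5350 and 5555 normalized counts in Control replicates 1 to 4 and 4997, 5730, 5201 and 4740 in the DZNep libraries. The groups overlapped and the group means of 5364 ± 366 and 5167 ± 420 (SD, n = 4 each) differed by less than either SD. The log2 fold change was -0.08 (95% interval -0.38 to 0.21, adjusted p = 0.657 by edgeR), and it was 0.0048 with library sizes alone. The ratio of CPSF3 to SYMPK counts was 1.11 ± 0.09 in the Control and 0.61 ± 0.10 (SD, n = 4 each) with DZNep, lower in every DZNep library. CPSF2, the inactive partner of CPSF3, itself fell by 0.68 on the log2 scale (adjusted p = 0.0189), and the ratio of CPSF3 to CPSF2 counts, 1.23 ± 0.30 and 0.98 ± 0.19 (SD, n = 4 each), overlapped between the groups. All ratios within libraries were chosen after the values were seen and carry no test.

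**Figure D2:**
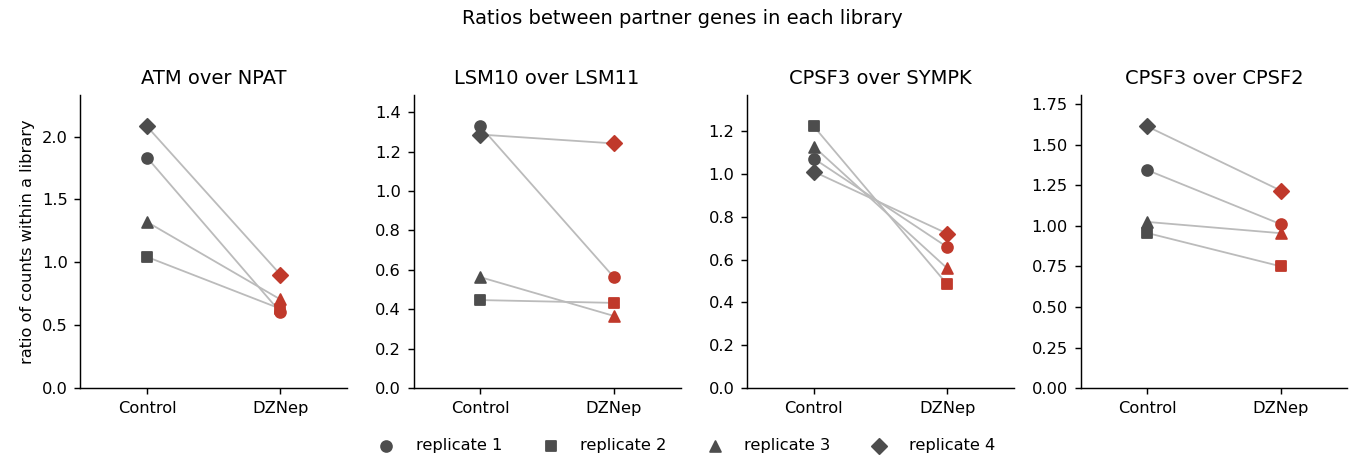
Ratio of counts of 2 genes within each library (vertical axes, from 0) for ATM over NPAT, LSM10 over LSM11, CPSF3 over SYMPK and CPSF3 over CPSF2; symbols mark replicates 1 to 4 and grey lines join libraries of the same number. ATM over NPAT and CPSF3 over SYMPK were lower in every DZNep library, and the other ratios overlapped.

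ERI1 (ENSG00000104626), the exonuclease, lies on chromosome 8. ERI1 had 1053, 1252, 1380 and 744.5 normalized counts in Control replicates 1 to 4 and 1212, 1589, 1357 and 940.5 in the DZNep libraries. The groups overlapped, with replicate 4 lowest in both. The log2 fold change was 0.18 (95% interval -0.31 to 0.67, adjusted p = 0.557 by edgeR), and DZNep was higher in 3 of 4 pairs.

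MIGA2 (ENSG00000148343), the mitochondrial protein, lies on chromosome 9 from 129036621 to 129072082. MIGA2 had 512, 625, 632 and 565 normalized counts in Control replicates 1 to 4 and 775, 1026, 784 and 938 in the DZNep libraries, with no overlap. The mean rose from 584 ± 56.5 to 881 ± 122 (SD, n = 4 each), and the log2 fold change was 0.56 (standard error 0.15, adjusted p = 0.0125 by edgeR). Without MIGA2, none of the other 9 genes passed upward in the edgeR test without a block, and 1 of them, ZNF473, had an unadjusted p under 0.05 (0.0239). When blocked on the replicate number, 2 of the 10 genes were higher at the p-value alone (ZNF473 and MIGA2), beside 28.8% of all genes, and 4 were lower (CASP8AP2, LSM10, LSM11 and CPSF3), beside 30.2%. By both thresholds the block gave 1 lower (CASP8AP2), beside 14.3%, and 0 higher, beside 11.7%.

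**Figure D3:**
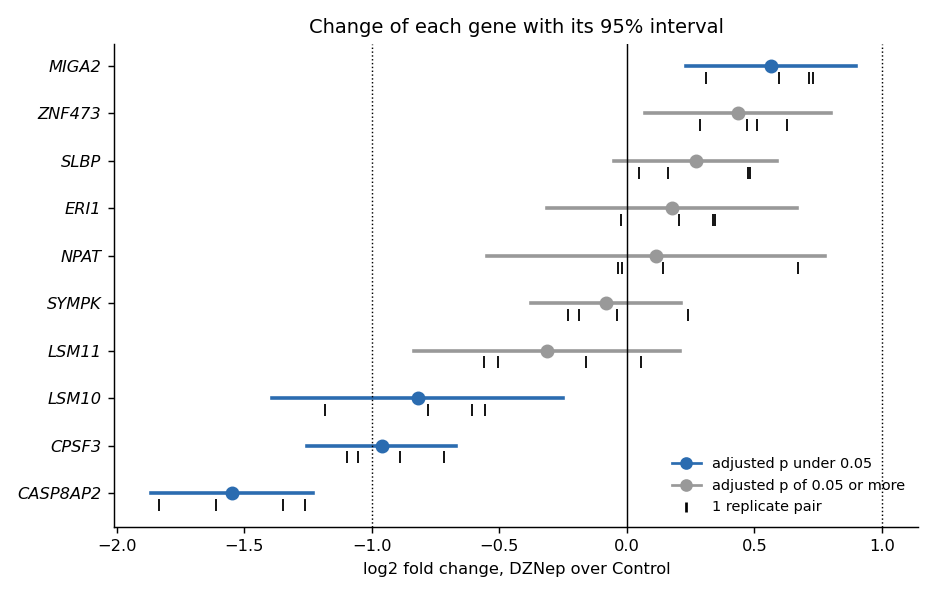
Log2 fold change of DZNep over Control (horizontal axis) of the 10 genes, with the 95% interval from edgeR's quasi-likelihood fit as a bar and the log2 ratio of each replicate pair as a tick below it; dotted lines mark a change of 1 in either direction. CASP8AP2 alone has its interval beyond -1, and the intervals of NPAT, SYMPK, ERI1, LSM11 and SLBP include 0.

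Levels were compared between genes per kilobase of GENCODE exons, as normalized counts per kilobase. The length took in the exons of all annotated transcripts of a gene, which can exceed that of the RNA made. The order between genes therefore depends on the annotation. In the Control, SLBP (1613 ± 127) and CPSF3 (1605 ± 58.0) were the most abundant, and they did not differ beyond their spread. LSM10 followed with 1099 ± 336 and SYMPK with 509 ± 34.7, and CASP8AP2 was the fifth with 421 ± 55.9. LSM11 stood at 308 ± 78.0. ERI1 (173.5 ± 43.4), NPAT (142 ± 58.0) and ZNF473 (135 ± 24.5) overlapped in their spread, and MIGA2 was lowest with 92.6 ± 8.97 (SD, n = 4 for each). In the DZNep libraries SLBP stayed highest with 1982 ± 270 per kilobase, and CPSF3 (840 ± 83.1) and LSM10 (634 ± 181) came next. SYMPK stood at 491 ± 39.9, LSM11 at 252 ± 62.9, ERI1 at 200 ± 42.6 and ZNF473 at 186 ± 20.1. CASP8AP2, at 147 ± 9.76, was then the ninth of 10, within the spread of NPAT (156.5 ± 42.5) and MIGA2 (140 ± 19.4).

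The promoters of the 3 genes that fell are shown because these genes moved the same way. Each is 300 bases of GRCh38.p14 from RefSeq, 250 before to 50 after the annotated start, and capitals mark TTTNNCGC, an E2F motif, and CCAAT, both on either strand. Among the 35114 promoters of the RefSeq table, 6.89% held TTTNNCGC and 34.6% held CCAAT.
CASP8AP2, chr6:89829630-89829929, plus strand: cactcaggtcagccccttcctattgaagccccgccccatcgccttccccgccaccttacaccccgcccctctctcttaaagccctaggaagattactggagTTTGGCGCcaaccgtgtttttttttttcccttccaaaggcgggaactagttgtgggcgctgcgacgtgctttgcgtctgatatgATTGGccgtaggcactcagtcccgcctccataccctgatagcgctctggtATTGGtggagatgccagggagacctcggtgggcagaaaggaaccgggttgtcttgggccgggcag
CPSF3, chr2:9423404-9423703, plus strand: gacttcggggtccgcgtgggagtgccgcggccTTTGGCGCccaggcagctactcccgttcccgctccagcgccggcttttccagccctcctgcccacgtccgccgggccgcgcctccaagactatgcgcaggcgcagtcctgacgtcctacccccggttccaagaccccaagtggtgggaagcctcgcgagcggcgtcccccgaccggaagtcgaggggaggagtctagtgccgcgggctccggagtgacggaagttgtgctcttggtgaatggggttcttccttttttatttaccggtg
LSM10, chr1:36397859-36398158, minus strand: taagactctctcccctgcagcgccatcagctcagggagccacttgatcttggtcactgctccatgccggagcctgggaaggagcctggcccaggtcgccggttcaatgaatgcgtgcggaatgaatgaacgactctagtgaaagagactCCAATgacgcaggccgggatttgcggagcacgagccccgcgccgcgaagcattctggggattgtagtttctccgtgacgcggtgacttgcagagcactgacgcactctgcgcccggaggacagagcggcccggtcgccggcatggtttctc
The CASP8AP2 window held 1 match to TTTNNCGC, at position -149 from the start of the gene, and 2 to CCAAT. The CPSF3 window held 1 match to TTTNNCGC, at position -218, and none to CCAAT, and the LSM10 window held 1 match to CCAAT only. MIGA2, which rose, has 2 windows in the table, of which 1 held TTTNNCGC. The windows of NPAT, SLBP, LSM11 and SYMPK, which did not pass the test, held no match to TTTNNCGC. The part of this motif in the changes was not tested. Promoters of 8 of the 10 genes were searched, since ZNF473 had no entry in the table and ERI1 was left out. These matches are descriptions of letters and not of binding.

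The genes whose pattern over the 8 libraries was most like that of each gene that passed the test were found by the root mean square difference of log2(normalized count + 1), centred on the mean of each gene, among the 10792 genes whose average log2 CPM was 3 or more. For LSM10 these were LSM4, with a difference of 0.064, and the ribosomal protein gene RPS23, with 0.083. LSM4 belongs to the cytoplasmic and nuclear LSM rings of RNA decay and splicing, and it fell by 0.86 on the log2 scale (adjusted p = 0.0239). For CPSF3 they were NAE1 (0.050) and MORN4 (0.067), and for CASP8AP2 they were PCOLCE2 (0.086) and IFNAR2 (0.090). For MIGA2 they were USF1 (0.067) and U2AF2 (0.077). The measure takes in the difference between the groups, so that likeness is partly a like fold change.

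The other genes of the pathway were followed in 8 lists with 119 genes, all tested. At an adjusted p-value under 0.05, 17 were higher and 17 were lower, and with the fold change threshold 5 were higher and 5 were lower, all below the shares of all genes given above. Their median log2 fold change was 0.02, beside -0.03 over all genes tested. In the counts by list below, rose and fell mean an adjusted p-value under 0.05 by edgeR. By that rule 19.1% of all genes tested rose and 21.8% fell, and each count stands beside these shares.

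Among 12 genes that feed into histone gene transcription, 1 rose and 3 fell, with a median of 0.07. HINFP, the zinc finger factor that works with NPAT on histone H4 promoters, rose from 622 ± 90.5 to 1347 ± 148 (normalized counts, SD of n = 4 in each group), a log2 difference of 1.09 (adjusted p = 0.000393). The activator E2Fs fell together: E2F2 by 1.22, E2F3 by 0.78 and E2F1 by 0.74 on the log2 scale, with adjusted p-values of 0.000303, 0.000696 and 0.00573. The remaining 8, CDK2, cyclin E and GON4L among them, did not pass the test.

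Of 17 other cleavage and polyadenylation factors, 4 rose and 1 fell. CLP1, an RNA kinase of cleavage factor II, rose from 547 ± 78.5 to 1328 ± 190 (normalized counts, SD of n = 4 in each group), a log2 difference of 1.25 (adjusted p = 0.000239). CSTF1, CPSF6 and CSTF2T rose by 0.79, 0.79 and 0.49, and CPSF2 was the one that fell. The median of the list was 0.23.

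Of 18 genes for Sm ring proteins and their assembly, 2 fell and 1 rose, with a median of -0.03. CLNS1A, the chaperone that delivers Sm proteins to the PRMT5 methyltransferase, fell from 6134 ± 194 to 2931 ± 372 (normalized counts, SD of n = 4 in each group), a log2 difference of -1.09 (adjusted p = 0.000215). SNRPD1, a counterpart of LSM10 in the spliceosomal ring, fell by 0.61 (adjusted p = 0.0463), and the helicase DDX20 rose by 0.46.

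Of 15 genes of the cap complex, export and translation, 5 rose and 1 fell. CDK9, the elongation kinase, rose from 1830 ± 329 to 4829 ± 497 (normalized counts, SD of n = 4 in each group), a log2 difference of 1.37 (adjusted p = 0.000156). NELFCD, the export receptor NXF1, SRRT (also called ARS2) and ZC3H18 rose by 0.96, 0.83, 0.58 and 0.45, and SRSF7 fell by 0.55.

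Of 19 genes of histone RNA decay, 4 fell and 2 rose. ATR, the replication stress kinase, fell from 1402 ± 639 to 339 ± 55.8 (normalized counts, SD of n = 4 in each group), a log2 difference of -2.07 (adjusted p = 0.000396). SMG1, the kinase of UPF1, fell by 1.03 with an adjusted p-value of 0.0162, or 0.0621 without DZNep replicate 1. LSM4 and EXOSC10 fell by 0.86 and 0.37. TUT7, a uridylyl transferase that marks histone RNA for decay, rose by 0.92, and LSM3 rose by 0.66.

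Of 11 genes for SLBP turnover, 3 rose and 1 fell, with a median of 0.28. FEM1A, a receptor of a CUL2 ubiquitin ligase, rose from 450 ± 82.7 to 1258 ± 271 (normalized counts, SD of n = 4 in each group), a log2 difference of 1.45 (adjusted p = 0.000285). CCNF, cyclin F, rose from 2242 ± 593 to 5672 ± 536 (SD, n = 4 each), a log2 difference of 1.31 (adjusted p = 0.000573). FEM1C rose by 0.79, and CSNK2A2 fell by 0.51.

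Of 21 S phase genes, 3 fell and 1 rose, with a median of -0.23. PCNA, the sliding clamp of DNA polymerase, and CDC45 of the replicative helicase fell by 0.75 and 0.55 on the log2 scale, and MCM5 rose by 0.61. The summed level of the list was 156990 to 193360 normalized counts in the Control and 149730 to 180950 in the DZNep libraries, which overlap. Of 6 histone chaperone genes 2 fell. ASF1B, a carrier of new histones H3 and H4, fell from 4091 ± 334 to 1365 ± 260 (normalized counts, SD of n = 4 in each group), a log2 difference of -1.61 (adjusted p = 7.27e-05), and NASP fell by 0.70. The adjusted p-values of these lists are from edgeR's quasi-likelihood test over all genes tested.

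**Figure D4:**
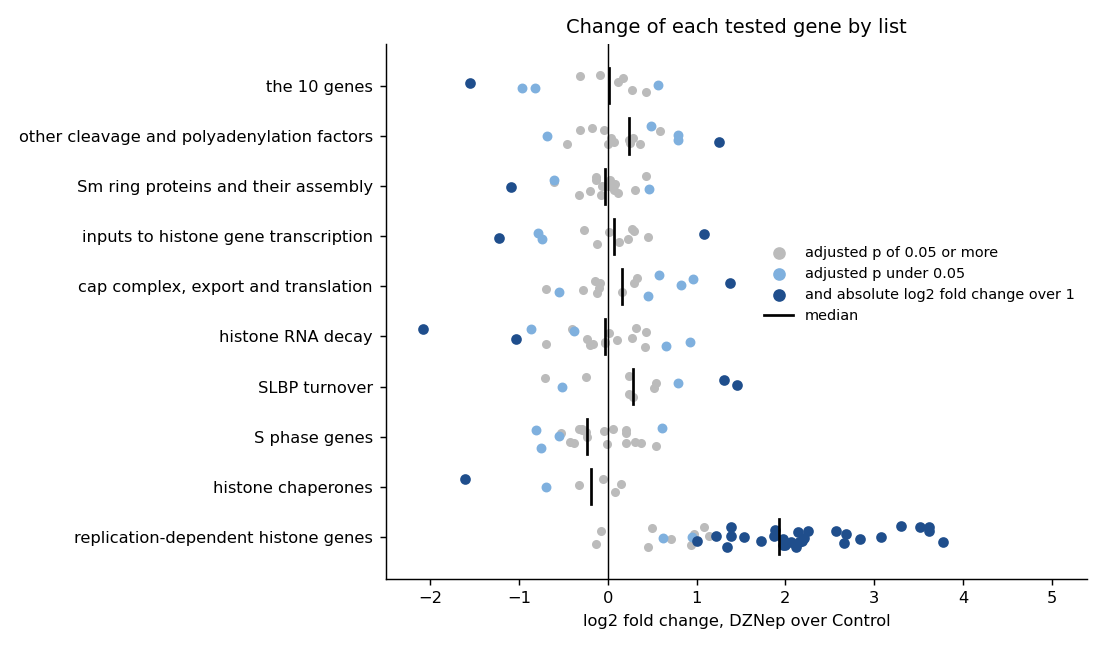
Log2 fold change of DZNep over Control (horizontal axis) of each tested gene of the 10 followed here, of the 8 other lists of the pathway and of the replication-dependent histone genes; dark points passed both thresholds, light blue points the p-value only, and bars give the median. The median of the histone genes is 1.93, and those of the other lists lie between -0.23 and 0.28.

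The summed counts of the replication-dependent histone genes, on which these factors work, were higher with DZNep. The summed level of the 65 replication-dependent histone genes was 4851, 3698, 3177 and 6192 normalized counts in Control replicates 1 to 4 and 20829, 18142, 16311 and 26011 in the DZNep libraries. The groups were far apart, and within each group replicates 1 and 4 were the highest, where NPAT and LSM11 were low in the Control. H3C10 and H2AC6, the genes whose stem-loops are given above, had log2 fold changes of 3.78 and 3.61, and H3C13 had 3.62. Histone genes of one kind are near-identical copies, so values of single genes are uncertain. Of the 40 tested, 29 were higher by both thresholds, beside 10.6% of all genes, and 0 were lower, beside 13.5%. With at least 10 reads in every library, 18 were higher, beside 7.19% of all genes tested in that fit. That filter takes out histone genes with few reads in the Control, such as H3C13, before the test. The list of histone genes was known to move before it was taken up, so these counts are no independent evidence. Whether the libraries were selected for poly(A) is not given in the sources used here, so the share of histone RNA without a poly(A) tail that was measured is not known, and its part in these values was not tested.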

How the data were processed

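The 8 RNAseq libraries of HEK293T cells were grouped by treatment and replicate number from the labels. Per the labels and the methods, the authors used Trimmomatic 0.36 to trim the paired reads of 150 bp, STAR 2.5.2b to map them on GRCh38 and featureCounts of Subread 1.5.2 to count unique exonic reads per gene. They deposited counts, without normalization, for 57500 genes. They also deposited a normalized signal for 19118 genes, which is the count over 1 size factor per library, for genes with more than 80 counts in all. Library type, strandedness and annotation release are not given in the sources used here. The study calls the libraries of a group biological replicates, without saying whether they came from separate cultures, so p-values measure only the spread between these libraries, which may be technical.

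Symbols, positions and exon lengths came from GENCODE v44 on GRCh38, which matched 56410 identifiers, and promoters from RefSeq. Counts were tested with edgeR 4.0.16 in R 4.3.3 (quasi-likelihood test, TMM, filterByExpr, Benjamini-Hochberg adjustment over 19171 genes), with the thresholds of the study on the adjusted p-value (0.05) and on the absolute log2 fold change (1). The study itself used the Wald test of DESeq2. The test was checked on simulated counts. Standard errors are the log2 fold change over the square root of F.

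Alternatives were DESeq2 1.42.0, limma 3.58.1 on log2(normalized count + 1) or + 0.5, median-ratio size factors, library sizes alone, no filter, at least 10 reads in every library, the replicate number as a block and leaving out each library. Deviations from the group means correlated by 0.13, 0.44, 0.38 and 0.64 between libraries of the same number 1 to 4, all over 0.1. On that basis equal numbers were treated as pairs, although these values do not establish a pairing by number. Control replicate 1 correlated more with DZNep replicate 4 (0.49) than with its own number, and libraries 2 and 3 also correlated across numbers (0.36 and 0.30). The reported test has no block, and the sources used here do not state one.

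The 10 genes and the lists were chosen with earlier results of these data known. Genes named from the other lists are up to 3 with the largest change past both thresholds, or else the 1 with the lowest adjusted p-value, and others were named after their values were seen. The result of 1 gene is not reported here.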

Additional observations from a re-analysis of the deposited data

How the results depend on the processing

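With an adjusted p-value under 0.05 alone, 1 of the 10 genes was called higher and 3 lower in place of 0 and 1, 17 and 17 of the 8 other lists in place of 5 and 5, and 3656 and 4171 of all genes in place of 2041 and 2589. With at least 10 reads in every library, 1141 of all genes were called higher, with 15870 tested. With each library left out in turn, 1 to 3 of the 10 genes were called lower, beside 11.8% to 15.1% of all genes tested, the 3 without DZNep replicate 4 (14.2%). NPAT ranged from -0.050 to 0.36 over these, turning sign in 3 of 8, and SYMPK turned to 0.0048 with library sizes alone. The cause was not tested. CASP8AP2 (-1.61 to -1.46), CPSF3 (-1.01 to -0.89) and MIGA2 (0.49 to 0.64) kept direction and the p-value threshold in all 16 alternatives for each.

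With the replicate number as a block, 1 of the 10 genes was called lower and 0 higher by both thresholds, and 2243 and 2736 of all genes. At the p-value alone, the block changed the calls of LSM11 and ZNF473, given with those genes, and of no other of the 10 genes. LSM10 lost its call in 5 of the 8 fits that leave out a library. ZNF473 passed in 7 of 16 alternatives, with adjusted p-values from 0.00436 to 0.143 over all of them. Standard errors of the 10 genes were 0.13 to 0.30 on the log2 scale, and the part of depth in them was not tested.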
